A study of Mus musculus with 2 samples.

Results

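Proliferating Csf1r-positive myeloid cells were taken here as barcodes with transcripts of Csf1r and of several genes of cell division. Csf1r encodes the receptor for colony-stimulating factor 1, on which monocytes and macrophages depend. The cells were chosen by measured values: a barcode (the tag that marks 1 droplet) was taken when it held at least 500 UMIs (unique molecular identifiers, each counting 1 captured transcript), more than 200 and fewer than 6000 genes, less than 5% mitochondrial UMIs, at least 1 UMI of Csf1r, less than 2% of its UMIs from the neutrophil genes S100a8 and S100a9, and UMIs of at least 3 of the 5 genes Mki67, Top2a, Birc5, Ccna2 and Cdca3. This rule found 119 of the 19826 barcodes past the filters, 32 of 8557 in the control IgG library and 87 of 11269 in the anti-CD3L1 library; they are called the members. The 2084 and 7188 Csf1r-positive barcodes that met every other condition but had fewer than 3 of the 5 genes served for comparison and are called the other Csf1r-positive cells.

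Tumors of the human osteosarcoma line 143B were raised in female nude mice, 4 weeks old at the start. Nude mice lack T cells but keep myeloid and natural killer (NK) cells. Mice received a human IgG1 isotype control or the anti-CD3L1 antibody at 10 mg/kg every 3 days for 4 doses, and CD45-positive cells were sorted with beads from 3 tumors pooled per library. Each treatment was thus 1 library, no barcode was tied to a tumor, and the antibody cannot be told apart from any other difference between the libraries. For this reason no p-value is given, cells are not replicates, and all intervals are 95% intervals for counting error only.

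Macrophages in tissues are replenished by recruited monocytes and by division in place, and Csf1r signaling drives both survival and proliferation. Entry into the cycle begins with D-type cyclins and E2F factors, continues through origin licensing, DNA replication and histone supply in S phase, and ends with the mitotic kinases, spindle and cytokinesis machinery. Many late genes of this program carry a CCAAT box and a CHR element (cell cycle genes homology region) in their promoters. Through the CHR element the MuvB complexes keep them off in resting cells and on in G2 and M.

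The start regions of genes of this late program are shown because several of them chose the members. RefSeq (GRCm38.p6) gave a window of 300 bases, 250 before and 50 after the start, for 7 of the 8 genes looked up (Mki67, Top2a, Birc5, Cdca3, Cdk1, Ccnb1 and Plk1). In the lines that follow, 110 bases before to 50 after the start are written 5′ to 3′ on the strand of the gene, with capitals marking the CHR words TTTGAA and TTTAAA and the CCAAT box CCAAT, each on either strand.
Top2a, chr11:99024140-99024299, minus strand: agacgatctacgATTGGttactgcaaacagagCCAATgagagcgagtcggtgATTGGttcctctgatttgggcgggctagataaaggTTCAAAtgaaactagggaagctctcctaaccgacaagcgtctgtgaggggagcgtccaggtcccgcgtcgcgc
Cdca3, chr6:124830066-124830225, plus strand: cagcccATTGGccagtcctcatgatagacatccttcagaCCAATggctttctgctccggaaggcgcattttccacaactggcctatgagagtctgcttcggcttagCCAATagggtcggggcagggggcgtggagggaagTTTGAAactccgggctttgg
Cdk1, chr10:69352863-69353022, minus strand: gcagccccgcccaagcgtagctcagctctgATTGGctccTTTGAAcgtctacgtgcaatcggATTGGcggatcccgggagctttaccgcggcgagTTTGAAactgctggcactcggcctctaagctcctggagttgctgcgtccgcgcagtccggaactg
Ccnb1, chr13:100786437-100786596, minus strand: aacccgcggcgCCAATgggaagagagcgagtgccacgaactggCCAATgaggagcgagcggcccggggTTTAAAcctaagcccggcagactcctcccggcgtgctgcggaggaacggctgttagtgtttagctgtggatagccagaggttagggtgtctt
Plk1, chr7:122159325-122159484, plus strand: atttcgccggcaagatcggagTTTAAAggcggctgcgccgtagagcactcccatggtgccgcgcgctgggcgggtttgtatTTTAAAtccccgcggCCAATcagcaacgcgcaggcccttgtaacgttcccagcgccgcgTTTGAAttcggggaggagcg
A CHR word lay in 7 of the 7 windows and in 27.6% of all 32851 windows in the table, and a CCAAT box lay in 6 of the 7 (not in Birc5) and in 37.4% of all. The E2F words TTTCCCGC, TTTGGCGC and TTTCGCGC, searched the same way, lay in 1 of the 7, that of Cdk1, and in 1.84% of all. A match describes letters in a window and not a bound site.

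Before any comparison, the members were checked against the label. All members had Csf1r by the rule, and they held a median of 3 of 10 macrophage markers in the control IgG library and 6 of 10 in the anti-CD3L1 library. The 18 control IgG members that were low in transcripts of complement C1q held a median of 1.5 of 10 macrophage markers (3 of which are the C1q genes) and 1.5 of 8 monocyte markers, and 5 of them held no macrophage marker. In the anti-CD3L1 library, 22 of the 87 members of the anti-CD3L1 library (25.3%, 16.6 to 35.7) held UMIs of at least 4 of 7 NK cell markers (Ncr1, Klrb1c, Klre1, Nkg7, Gzma, Prf1 and Eomes), against 0 of 32 in the control IgG library. These barcodes go against the myeloid label. The limit of 4 markers was set after the values were seen, and the split was sharp: 60 of the 87 held none of the 7 and 5 held 1 to 3. The 7 genes together had 2344 CPM (counts per 1000000 UMIs) in the 22 barcodes, with Gzma, a granule protease, the most abundant at 872 CPM, against 317 CPM in droplets of 10 to 100 UMIs of that library, which hold free RNA. Ncr1, the NK receptor NKp46, gave 104 UMIs in 20 of the 22 barcodes and none in the other 65 members. In 10 of the 22 a single UMI of Csf1r had met the rule, as it had in 9 of the other 65. Among the other Csf1r-positive cells, 8 (0.384%) and 105 (1.46%) carried as many NK markers. Scrublet, which scores barcodes by their likeness to simulated pairs of cells, placed 11 of the 22 in its top 5%; whether they were pairs of an NK cell and a macrophage was not tested. Values without these barcodes are therefore given beside several results. No member of the control IgG library had a UMI of any of the 7 markers, and 26 barcodes past the filters occurred in both libraries, none of them a member.

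Markers of T cells, B cells, fibroblasts and neutrophil precursors were low in the members. Summed CPM in the members of the control IgG and anti-CD3L1 libraries was 6.73 and 25.5 for 6 T cell genes, 53.9 and 78.9 for 6 B cell genes, 2.24 and 16.8 for 6 fibroblast genes and 3.37 and 9.32 for 8 genes of neutrophil precursors such as Elane and Mpo. The list of 10 neutrophil markers, which holds S100a8 and S100a9, limited by the rule itself, summed to 600.3 and 165 CPM. Droplets of 10 to 100 UMIs held 72486 and 1549 CPM of the same genes, so free neutrophil RNA was far more abundant in the control IgG library. Il7r, of the innate lymphoid cell list, gave 13 UMIs in the control IgG and 237 in the anti-CD3L1 members. Without NK-marked barcodes it stood at 14.6 and 168 CPM in the members, against 135 and 243 CPM in the other Csf1r-positive cells.

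The members were deep barcodes. They held 26735.5 UMIs in the median (range 12430 to 44837) in the control IgG library and 18245 (4139 to 38622) in the anti-CD3L1 library, against 12575 and 9066 in the other Csf1r-positive cells. Detection of 3 genes depends on depth, and a dividing cell also holds more RNA, so depth and division cannot be told apart in these counts. Just inside the limit, 10 and 27 barcodes had exactly 3 of the 5 genes, and their other cell cycle genes made up a median of 41.0 and 39.3 per 10000 UMIs. Just outside it, 70 and 157 barcodes had 2, with 18.8 and 18.7 per 10000, close to the 15.2 and 16.5 of barcodes with none of the 5. All 5 were detected in 12 and 22 barcodes, where those other genes reached 85.2 and 99.2 per 10000.

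Among Csf1r-positive barcodes, the members made up 1.51% (1.04 to 2.13; 32 of 2116) in the control IgG library and 1.20% (0.959 to 1.47; 87 of 7275) in the anti-CD3L1 library. The difference of -0.316 percentage points (-0.971 to 0.203) was within counting error. Without barcodes with 4 or more NK markers the shares were 1.52% and 0.909%, and the difference of -0.609 points (-1.26 to -0.103) then exceeded it. With every barcode thinned to 3000 UMIs, which left out 84 and 295 shallower barcodes but no member, 7 of 2032 (0.344%) and 36 of 6980 (0.516%) still met the rule, and the difference was 0.171 points (-0.221 to 0.437). At 1500 UMIs the shares were 0.190% and 0.125%, a difference of -0.0653 points (-0.369 to 0.0967). With all barcodes kept, each of these differences lay within counting error, so no order of the libraries was set at these depths. Leaving out the NK-marked barcodes changed whether the full-depth difference exceeded counting error. Among all barcodes past the filters the share was lower in the control IgG library, 0.374% against 0.772%, where 5765 of 8557 barcodes were above the S100a8 and S100a9 limit. Those neutrophil-rich barcodes gave the background: 1 of 5765 and 1 of 515 had 3 of the 5 genes, at median depths of 4636 and 2275 UMIs.

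**Figure D1:**
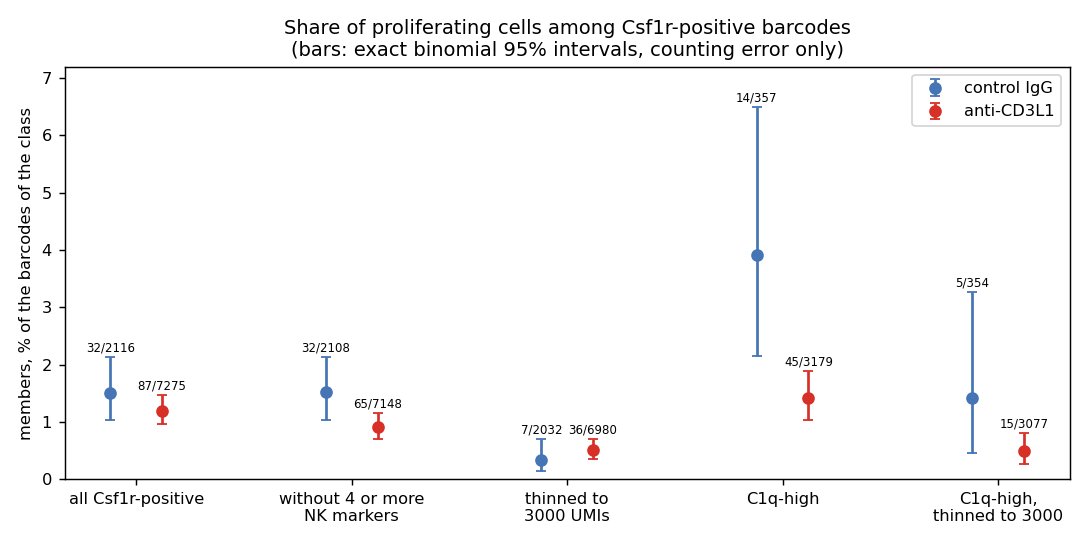
Share of members, in percent of the barcodes of each class (y axis), by class and depth (x axis), for the control IgG (blue) and anti-CD3L1 (red) libraries; points are shares with counts above them and bars are exact binomial 95% intervals. The intervals of the libraries overlap in all Csf1r-positive barcodes (1.51% and 1.20%) and lie apart in C1q-high barcodes at full depth (3.92% and 1.42%).

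Members made up a larger share of the C1q-high cells in the control IgG library than in the anti-CD3L1 library. C1qa, C1qb and C1qc encode the subunits of complement C1q, a product of mature macrophages, and a barcode was called C1q-high when they made up at least 0.1% of its UMIs. C1q-high barcodes formed 14 of 32 members (43.8%, 26.4 to 62.3) and 16.5% of the other Csf1r-positive cells in the control IgG library, and 45 of 87 members (51.7%, 40.8 to 62.6) and 43.6% of the others in the anti-CD3L1 library. Read the other way, members were 3.92% (2.16 to 6.49; 14 of 357) of C1q-high barcodes in the control IgG library and 1.42% (1.03 to 1.89; 45 of 3179) in the anti-CD3L1 library, a difference of -2.51 points (-5.08 to -0.865), or -2.65 points (-5.23 to -1.02) without NK-marked barcodes. Thinned to 3000 UMIs, 5 of 354 and 15 of 3077 remained, and the difference was -0.925 points (-2.79 to -0.0579). This gap exceeded counting error at both depths; whether it would recur between tumors cannot be told from 1 library each. Outside the C1q-high and the Flt3-positive cells (Flt3 marks dendritic cells and their precursors; 2 and 5 members), the shares were 0.925% and 0.938% (0.930% and 0.546% without NK-marked barcodes), and after thinning 1 of 1649 and 19 of 3751 barcodes met the rule. That difference of 0.446 points (0.110 to 0.734) exceeded counting error and had the opposite sign to the gap in C1q-high cells, but it kept the NK-marked barcodes, and at 1500 UMIs it was 0.0190 points (-0.257 to 0.176). At full depth without NK-marked barcodes the difference was -0.384 points (-0.989 to 0.0737).

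The C1q value parted the members of the control IgG library cleanly, with none between 0.05% and 0.2% of UMIs, whereas 9 of the 87 in the anti-CD3L1 library fell in that range. C1q-high members carried a median of 9 of 10 macrophage markers in both libraries, a count that the class itself raises, since 3 of the 10 are the C1q genes. Their 14 and 45 barcodes summed to 9093 and 10376 CPM of those markers, with C1qa at 2817 and 3639 CPM. Of the 45 in the anti-CD3L1 library, 5 were NK-marked.

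In the control IgG library the 18 C1q-low members held transcripts of osteoclast genes and of Nrp2. Nrp2, which encodes the co-receptor neuropilin-2 and was a gene of interest of the study, gave 13 to 82 UMIs in each of the 18 (median 41). In the 14 C1q-high members of the same library it gave 0 to 98 UMIs (median 1), with at least 10 in 2 of them. Every C1q-low member was thus at or above 13, and all but 2 C1q-high members lay below 10. Nfatc1, the master transcription factor of osteoclast formation, gave 0 to 37 UMIs in the C1q-low members (median 17.5) and 0 to 3 in the C1q-high ones (median 1). Ctsk, the collagen-degrading protease cathepsin K, gave 0 to 178 UMIs (median 3.5) and reached 10 in 7 of the 18. Acp5, the tartrate-resistant phosphatase, gave 1 to 171 UMIs (median 40.5) against 0 to 19 (median 7). Atp6v0d2, a proton pump subunit of osteoclasts, was found in 12 of the 18 and in 0 of the 14. The 10 osteoclast markers together summed to 3742 CPM in the C1q-low and 586 CPM in the C1q-high members, with a median of 5 and 2 of the 10 detected. Calcr, the calcitonin receptor of mature osteoclasts, had no UMI in any member of either library, and Oscar had 1. The combination of these genes was noticed after their values were seen.

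H2-Ab1, Irf8 and Ptprc were low in the same 18 barcodes. H2-Ab1, a chain of MHC class II, was at 0 in 11 of the 18, and 17 of the 18 had at least 10 UMIs of Nrp2 with at most 1 of H2-Ab1. Irf8, a factor of monocyte and dendritic cell fate, gave 7 UMIs in 4 of the 18, against 1 to 8 UMIs in each of the 14 C1q-high members. Ptprc, which encodes CD45, the antigen used in the sort, stood at 176 CPM (143 to 213) in the C1q-low and 435 CPM (364 to 515) in the C1q-high members. They were also the deepest barcodes, with a median of 34103 UMIs against 23146. Among the C1q-low other cells of that library, 126 of 1733 barcodes without NK markers showed the Nrp2 and H2-Ab1 combination, and 50 Csf1r-positive barcodes without NK markers held at least 10 UMIs of Nfatc1, 13 of them members.

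The C1q-low members of the anti-CD3L1 library held more transcripts of MHC class II and Ccr2. Of its 25 C1q-low members without NK markers, 3 had at least 10 UMIs of Nrp2 and 0 had at least 10 of Nfatc1, while 20 had at least 10 of H2-Ab1 and none was at 0. H2-Ab1 gave 1 to 141 UMIs in them (median 75), against 0 to 17 (median 0) in the 18 of the control IgG library. Ccr2, the receptor that brings monocytes into tissue, gave 0 to 41 UMIs (median 5), against 0 to 4 (median 0, found in 8 of the 18). Nrp2 was found in 19 of the 25, at 300.6 CPM, and Ctsk and Acp5 stood at 585 and 510.1 CPM, with the 257 UMIs of Ctsk in 6 barcodes. C1qa, low by the class, still gave 33 UMIs in 13 of the 25. Among barcodes of that library without NK markers, 9 Csf1r-positive ones held at least 10 UMIs of Nfatc1, and none was a member, while the 22 NK-marked members held 0 to 13 UMIs of it. In both libraries, then, part of the members were C1q-low, with Nrp2 and Nfatc1 higher in those of the control IgG library and H2-Ab1 and Ccr2 higher in those of the anti-CD3L1 library.

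**Figure D2:**
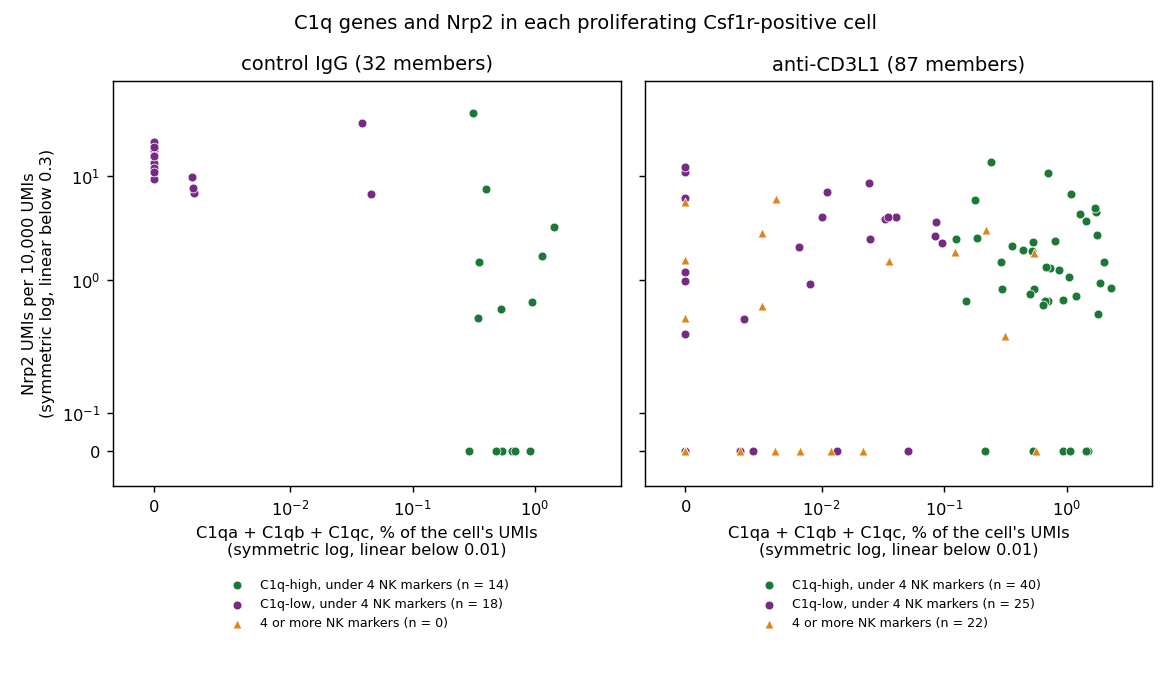
Each point is 1 member, with the share of its UMIs from C1qa, C1qb and C1qc (x axis, percent) against its Nrp2 UMIs per 10000 UMIs (y axis), both on symmetric log scales, in the control IgG (left, 32) and anti-CD3L1 (right, 87) libraries; colors mark C1q-high, C1q-low and NK-marked barcodes. The 18 C1q-low control IgG members form a group at high Nrp2, and the 22 NK-marked barcodes occur in the anti-CD3L1 library alone.

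The members held transcripts of most of the listed replication and division genes, which describes the choice and is not a separate finding. A gene was called higher when its summed CPM in the members was at least 2-fold that in the other Csf1r-positive cells (log2 ratio of 1) in both libraries, and lower when it was as far below in both. Of the 12684 genes with at least 20 UMIs in either class of each library, 6.84% were higher and 1.66% lower. Of the 167 such genes on the cell cycle lists (the 5 rule genes left out), 140 were higher and none lower. Without NK-marked barcodes, 6.52% of all genes were higher and 1.33% lower, and 136 of 167 cell cycle genes were higher. Since the rule used the same contrast, nothing further was read from this count.

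The rule genes themselves were sparse in each cell. Mki67, the proliferation antigen Ki-67, gave 0 to 21 UMIs per member (median 3.5) in the control IgG and 0 to 42 (median 5) in the anti-CD3L1 library. Top2a, the topoisomerase that untangles chromosomes, gave 0 to 31 (median 6) and 0 to 30 (median 4). Birc5 (survivin, of the chromosomal passenger complex) gave 0 to 14 (median 4) and 0 to 16 (median 3). Ccna2 (cyclin A2) was found in 23 of 32 and 39 of 87 members, and Cdca3, a trigger of mitotic entry, in 22 and 61. Ccna2 was the least often detected of the 5 in the anti-CD3L1 library, and no member held more than 6 of its UMIs.

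The rule genes act mostly in G2 and M, and whether the order of the roles follows from this choice was not tested. Among genes of the spindle and its kinesins, 18 of 18 were higher, with list medians of 4.68 and 4.59 on the log2 scale in the control IgG and anti-CD3L1 libraries, and all 12 of 12 kinetochore genes that passed were higher (4.82 and 5.19). Kif11, the motor that separates spindle poles, stood at 39.3 and 67.1 CPM in the members and at 0.26 and 0.94 CPM in the other cells. Cenpf, a kinetochore protein, stood at 105 and 87.6 CPM against 0.89 and 0.93. Cdk1, the kinase that starts mitosis and whose promoter is shown above, had log2 ratios of 5.29 and 4.91, and its partner Ccnb1 (cyclin B1) 5.14 and 5.36. Plk1, a kinase of mitotic entry, had 13 UMIs in 8 members and 38 in 24, and did not reach 20 UMIs in both libraries. All 6 condensin genes and the 6 cytokinesis genes that passed, among them Anln (anillin), were higher. Kif11, Cenpf, Cdk1 and Ccnb1 each stood at 2.01 CPM or less in the other cells.

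Most replication genes were higher as well. Of the origin licensing genes, which load and fire the replicative helicase, 15 of 17 were higher (medians 3.07 and 2.35), and of the replication fork genes 17 of 19 (3.49 and 2.85). Mcm5, a helicase subunit, stood at 123 and 93.2 CPM against 8.88 and 8.07. Pcna, the polymerase clamp, was common in the other cells at 74.4 and 88.2 CPM, reached 189.6 and 171 CPM in the members and was not called higher in the anti-CD3L1 library (log2 ratios 1.35 and 0.96). Nucleotide synthesis was higher in 15 of 17, with Rrm2, the ribonucleotide reductase subunit of S phase, at 5.68 and 5.62. Histones and S phase chromatin genes were higher in 11 of 13. H2afz, a histone variant, was abundant in both classes, at 1909.8 and 2111 CPM in the members and 889.8 and 871 CPM in the other cells.

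**Figure D3:**
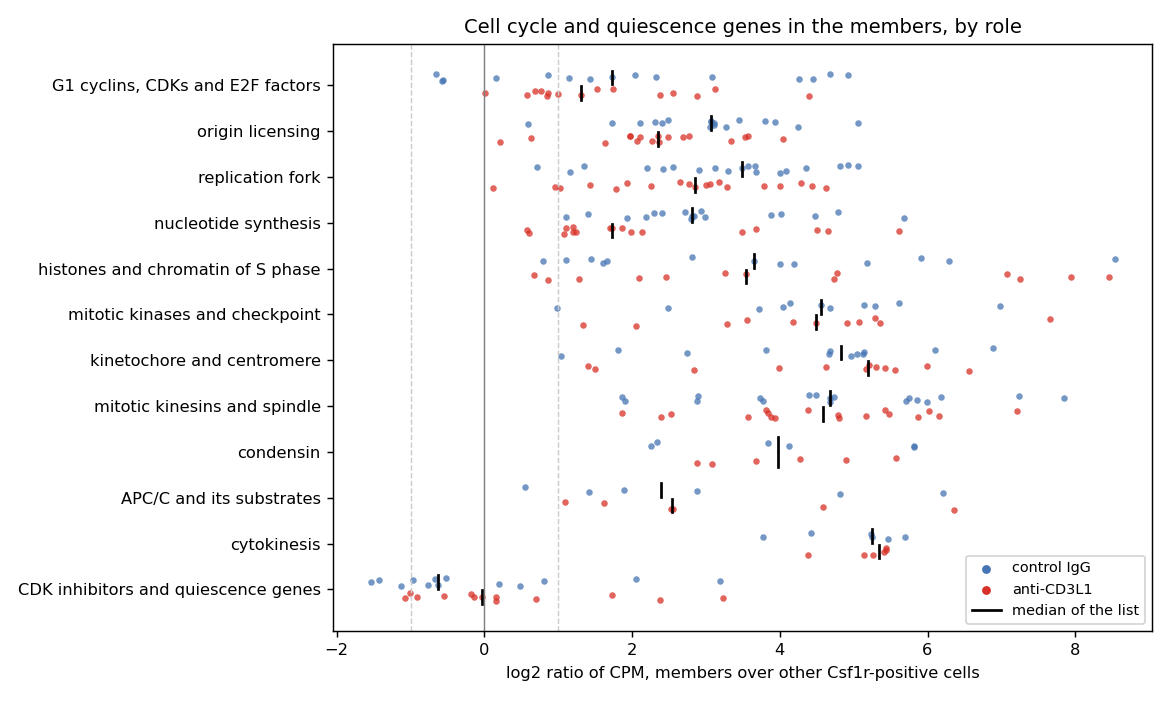
Each point is 1 gene that passed the filter on low counts, with its log2 ratio of CPM in the members over the other Csf1r-positive cells (x axis) by role (y axis), in the control IgG (blue) and anti-CD3L1 (red) libraries; counts under 3 are set to 3, black bars are list medians and dashed lines mark ratios of -1 and 1. The spindle list has medians of 4.68 and 4.59, and the inhibitor list lies near 0 at -0.63 and -0.03.

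The entry genes were mixed. Of 15 G1 cyclins, CDKs and E2F factors that passed, 7 were higher: Ccne1, Ccne2, Cdk4, E2f1, E2f8, Mybl2 and Foxm1. Cdk6 was at 265 and 229.9 CPM in the members and at 238 and 228 CPM in the other cells. Among CDK inhibitors and quiescence genes, Cdkn1a (p21, which stops the cycle) and Klf4 were lower, and Cdkn2c (p18) and Rbl1 (p107) were higher. Without NK-marked barcodes Cdkn1a and Klf4 did not reach the 2-fold limit in the anti-CD3L1 library, with log2 ratios of -0.92 and -0.88. Cdkn1a gave 0 to 17 UMIs per member (median 3) and 0 to 26 (median 4), so most members still carried it.

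Outside the cycle, monocyte genes were lower in the members. Of 8 monocyte markers 6 were lower, namely Ly6c2, Vcan, Chil3, Plac8, Thbs1 and F10, with list medians of -4.26 and -2.02. Plac8, a gene of classical monocytes, stood at 5.61 CPM in the control IgG members against 1493 CPM in the other cells, and at 363 against 894 CPM in the anti-CD3L1 library. The factors Cebpb and Zeb2, both of monocyte and macrophage differentiation, were lower as well, with Cebpb at 212 against 1357 and 218 against 537 CPM. The 6 monocyte markers, Cebpb and Zeb2 were lower without NK-marked barcodes too, where the anti-CD3L1 ratios of Cebpb and Zeb2 were -1.07 and -1.02. The cytokine gene Il1b was lower at 394 against 3806 and 862 against 1829 CPM, although its anti-CD3L1 ratio was -0.84 without NK-marked barcodes, and Vegfa was lower too. Spi1, which encodes PU.1, the factor that Csf1r expression needs, stood at 576 against 627 and 368 against 615 CPM. Of the osteoclast markers, Ctsk, Itgb3 and Mmp9 were higher in both libraries, although in the anti-CD3L1 library Ctsk lay in 14 members and Mmp9 in 9. Acp5, Atp6v0d2, Nfatc1, Ocstamp and Dcstamp passed and were not higher in both. Their log2 ratios in the control IgG library were 1.49, 2.68, 2.75, 0.60 and -0.35. In the anti-CD3L1 library they were -0.12, -0.55, 0.82, -1.42 and 0.51. Itgb3, the integrin beta 3 chain, gave 10 UMIs in 2 control IgG members and 31 in anti-CD3L1 members, 26 of them in 10 NK-marked barcodes, and its ratio there was 0.27 without them.

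The 10 highest ratios outside the lists rest on the same contrast as the rule and are only described here. Pclaf, the PCNA clamp associated factor, stood at 248 and 254 CPM against 1.75 and 1.93 in the other cells. Diaph3, a formin of cytokinesis, stood at 118 and 139 against 5.61 and 9.07 CPM, and Rad51b (of DNA repair), Dnajc9 (a histone chaperone) and Hist1h1e (a linker histone) were among the 10 highest. Selenoh, Car2, Cmc2 and Ccdc34 also were. Of the 103 Car2 UMIs in the anti-CD3L1 members, 80 lay in NK-marked barcodes, and the log2 ratios of Car2 without such barcodes were 3.83 and 1.33. Cxcl13, the chemokine that attracts B cells, owed its place to 4 and 2 members that held all of its 1146 and 266 UMIs. The 10 lowest were Hp, Apoc2, Inhba, Ifitm6, Rhov, Met, Ctsl, Clec4e, Plcb1 and Cdc42ep4; Clec4e, the receptor Mincle, stood at 53.9 against 1056 and at 152 against 476 CPM. In the control IgG library Clec4e stood at 1905 CPM in droplets of 10 to 100 UMIs and at 3641 CPM in barcodes above the S100a8 and S100a9 limit, and Hp at 796 and 1384 CPM, all above the other Csf1r-positive cells. The part of free or neutrophil RNA in these ratios was not tested.

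The medians of S phase and mitosis genes differed between classes of members. A list of S phase genes and one of G2 and M genes were summed per cell, per 10000 UMIs. Members had medians of 21.6 (2.24 to 78.6) for S and 32.2 (13.3 to 118) for G2/M in the control IgG library, and of 18.7 (1.88 to 65.5) and 40.4 (6.89 to 134) in the anti-CD3L1 library. The other cells had 3.71 and 11.3, and 4.96 and 11.1. In the control IgG library the C1q-high members had the higher G2/M median, 59.2 against 28.4 in the C1q-low members. The C1q-low members had the higher S median, 27.2 against 16.6. The G2/M value exceeded the S value in 11 of 14 C1q-high and 10 of 18 C1q-low members. In the anti-CD3L1 library the C1q-low members without NK markers had the higher G2/M median, 48.2 against 39.0 in the C1q-high ones, and S medians of 17.2 and 16.6 were close. The ranges overlapped in every class, and no phase was called for single cells.

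**Figure D4:**
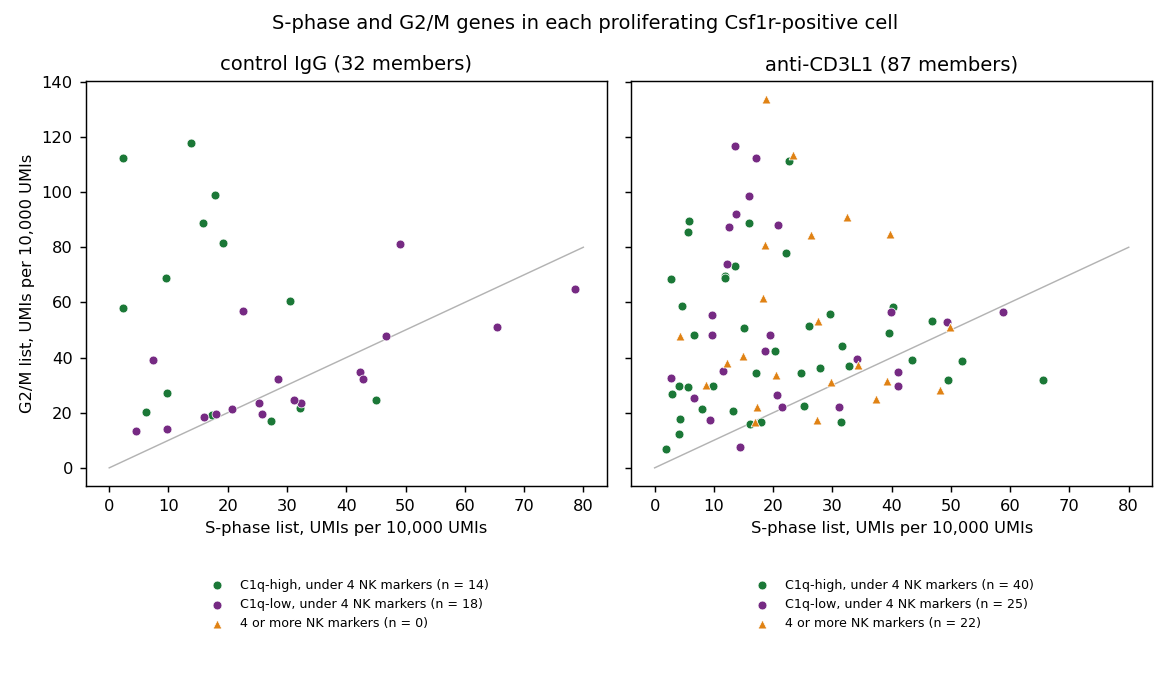
Each point is 1 member, with UMIs of the S phase list (x axis) and of the G2/M list (y axis) per 10000 UMIs, in the control IgG (left) and anti-CD3L1 (right) libraries; colors mark the classes and the gray line marks equal values. In the control IgG library C1q-high members lie high on the G2/M axis (median 59.2) and C1q-low members near the line (medians 27.2 for S and 28.4 for G2/M).

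Between the libraries, the members of the anti-CD3L1 library held more antigen presentation, interferon and monocyte transcripts and less Nrp2 and osteoclast transcripts. A gene rose or fell when its summed CPM in the members differed at least 2-fold. Of 8906 genes with at least 20 UMIs in the members, 16.0% rose and 8.31% fell, and the median log2 ratio was 0.07 (counts under 3 set to 3), so a list must be read against a wide background. Since the makeup of the members differed, ratios are given for all members and, for a number of genes and lists, also for the C1q-high members (14 and 45, the latter with 5 NK-marked barcodes) or without NK-marked barcodes (32 and 65). Single barcodes weigh on pooled counts: without the barcode that held most UMIs of a gene in its higher library, 72 of the 86 listed or named genes that rose and 26 of the 37 that fell stayed past the limit. A ratio of pooled members cannot tell a change within cells from a change in their makeup.

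All 7 of the MHC class II genes rose, with a median log2 ratio of 2.86 (3.19 without NK-marked barcodes and 1.54 in C1q-high members). Cd74, the invariant chain that guides class II loading, gave 0 to 169 UMIs per member (median 2.5) in the control IgG library and 0 to 475 (median 68) in the anti-CD3L1 library. Its levels of 691 CPM (638 to 748) and 5007 CPM (4899 to 5118) gave a log2 ratio of 2.86 (2.74 to 2.98), and 1.54 (1.41 to 1.67) in C1q-high members. H2-Ab1 gave 0 to 78 UMIs (median 1) and 0 to 150 (median 20). Most members of the anti-CD3L1 library were above the median of the control IgG library, though the ranges overlapped. In the other Csf1r-positive cells H2-Ab1 differed in the same direction by 1.44, against 3.26 in the members. Droplets of 10 to 100 UMIs held more CPM of H2-Aa and H2-Ab1 than the members in at least 1 library. The part of free RNA in the ratios of the class II genes was not tested. Ciita, the master switch of these genes, rose from 7.85 to 47.8 CPM, with log2 ratios of 2.61 in all and 0.89 in C1q-high members. Dendritic cell markers, which mark cells rich in class II, moved with these genes: 8 of them summed to 53.9 and 127 CPM in the members and to 53.0 and 83.4 CPM in the other Csf1r-positive cells. Flt3, Zbtb46, Cd209a and Ccr7 rose in all members and Fscn1 fell, although without their top barcode Flt3 was at 0.75 and Fscn1 at -0.01 on the log2 scale. Cd209a had no UMI in the control IgG members and 28 in 8 anti-CD3L1 members, Ccr7 had 1 and 76 (in 22 members), and Zbtb46 had 2 and 31 (in 14). In C1q-high members Ccr7 and Zbtb46 were below the 2-fold limit, at 0.44 and -0.70 with counts under 3 set to 3. At least 4 of the 8 were found in 0 of 32 and 4 of 87 members, and the part of such cells in the class II result was not tested.

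Of 11 interferon response genes, 9 rose, among them Isg15, Ifit2, Ifit3, Irf7, Rsad2, Oasl2, Cxcl9 and Gbp2 (list median 1.53, and 1.11 in C1q-high members). Without their top barcode Ifit3 and Oasl2 were at 0.78 and 0.96, and in C1q-high members at 0.73 and 0.15. Irf7, a factor that amplifies interferon, went from 33.7 to 176 CPM (log2 ratio 2.39, 1.84 to 2.98), and Gbp2, a guanylate-binding protein, from 3 UMIs in 3 members to 82 in 32. In the other Csf1r-positive cells the same 2 genes differed by 0.54 and 0.39. Cxcl9, a chemokine induced by interferon gamma, had no UMI in the control IgG members and 128 UMIs in 14 members of the anti-CD3L1 library. Droplets that hold free RNA had more CPM of Cxcl9 than the members in at least 1 library. The part of free RNA in the ratios of the interferon response genes was not tested.

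Of the 7 monocyte markers that passed, 5 rose, namely Ly6c2, Ccr2, Plac8, Fn1 and F10, and 1, Vcan, fell (16.8 and 7.46 CPM, 15 and 12 UMIs). The fall of Vcan rested on few UMIs: its log2 ratio was -1.17 in all members, -0.81 without NK-marked barcodes and 0.68 without 1 control IgG barcode that held 11 of the 15. Ccr2 gave 0 to 4 UMIs per member (median 0) against 0 to 41 (median 2), or 22.4 (13.7 to 34.7) and 235 (212 to 260) CPM, with a log2 ratio of 3.39 in all and 3.14 in C1q-high members. Plac8 rose by 6.02 on the log2 scale and by 4.24 in C1q-high members. Ly6c2, the antigen of inflammatory monocytes, had 2 UMIs in 2 members and 141 in 28. The other Csf1r-positive cells had log2 ratios of -0.02, -0.74 and 0.47 for Ccr2, Plac8 and Ly6c2. In the control IgG members Plac8 gave 5 UMIs in all, while Ccr2 gave 20 UMIs in 12 of the 32. Droplets that hold free RNA had more CPM of Plac8, Ccr2 and Ly6c2 than the members in at least 1 library. The part of free RNA in the ratios of the monocyte markers was not tested.

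Nrp2 fell. It stood at 1091 CPM (1023 to 1161) in the control IgG members, with 0 to 98 UMIs per cell (median 29), and at 222 CPM (200 to 247) in the anti-CD3L1 members, with 0 to 24 (median 2). The log2 ratio was -2.29 (-2.47 to -2.12) in all members, -2.06 without NK-marked barcodes and -0.98 (-1.31 to -0.65) in C1q-high members, where 1 barcode of the control IgG library held 98 of the 136 UMIs. Without that barcode the ratio was -2.18 in all members and 0.74 (0.23 to 1.28) in C1q-high members, so the sign within C1q-high cells rested on it. Nrp2 was found in 8 of the 14 and 38 of the 45 C1q-high members, with medians of 1 and 3 UMIs. In the other Csf1r-positive cells the levels were 330.1 and 318 CPM, a log2 ratio of -0.05. Among other genes of interest of the study, Cd74, Ly6c2 and Mrc1 rose, and Cd86, Ccl9 and Itpripl1 did not pass the 2-fold limit in all members. Cd86 had log2 ratios of 0.98 in all members, 1.40 without NK-marked barcodes and -0.37 in C1q-high members, and Ccl9 had 0.46, 0.78 and 2.36. Mrc1, the mannose receptor CD206, stood at 105 and 227 CPM in all members, with a log2 ratio of 1.11 (0.94 without its top barcode), and at 280.1 and 283 CPM in C1q-high members, a log2 ratio of 0.02 (-0.34 to 0.39).

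Of the 8 osteoclast markers that passed, 6 fell: Ctsk, Acp5, Ocstamp, Atp6v0d2, Nfatc1 and Mmp9. Acp5 gave 0 to 171 UMIs per member (median 17.5) in the control IgG and 0 to 122 (median 3) in the anti-CD3L1 library, with a log2 ratio of -1.63 (-1.78 to -1.48). Nfatc1 gave a log2 ratio of -2.28 in all members, -3.30 without NK-marked barcodes and 0.18 (-0.69 to 1.13) in C1q-high members. Tnfrsf11a, the receptor RANK through which osteoclasts are formed, fell from 194 to 55.9 CPM, and its log2 ratio in C1q-high members was -1.40. Dcstamp, a fusion protein of osteoclasts and dendritic cells, rose instead, from 6 UMIs in 5 members to 95 in 18. The list median was -1.90 in all members and 0.31 in C1q-high members. There Mmp9, found in 3 of the 14 control IgG members, was still lower at -3.24, and Ctsk, Acp5 and Nfatc1 were not past the 2-fold limit. Atp6v0d2 had no UMI in those 14 and was at 1.68, past the limit in the opposite direction, with counts under 3 set to 3.

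**Figure D5:**
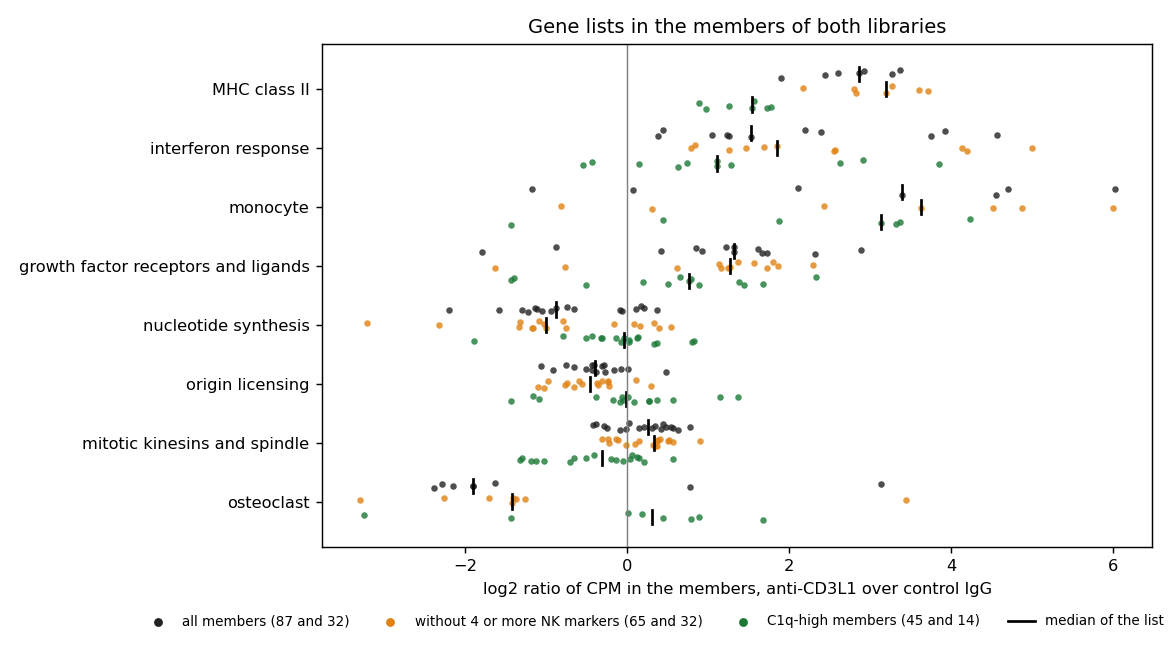
Each point is 1 gene, with its log2 ratio of CPM in the members of the anti-CD3L1 over the control IgG library (x axis), by list (y axis), in all members (black), without NK-marked barcodes (orange) and in C1q-high members (green); counts under 3 are set to 3 and black bars are medians. MHC class II lies right of 0 in all 3 sets (medians 2.86, 3.19 and 1.54), and the osteoclast list moves from -1.90 to 0.31 in C1q-high members.

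Of 175 cell cycle genes that passed, 8 rose and 15 fell between the libraries, with a median of -0.01 (-0.03 without NK-marked barcodes). Over all 8906 genes tested, 16.0% rose and 8.31% fell, so no tilt of the cell cycle genes was read from the 15 falls. Nucleotide synthesis held 7 of the 15, namely Dctpp1, Ctps, Cad, Gart, Atic, Shmt1 and Mthfd1, most of them enzymes of purine, pyrimidine and one-carbon metabolism. Without their top barcode Dctpp1, Shmt1 and Mthfd1 were at -0.95, -0.91 and -0.99. Its median was -0.88 in all members and -0.04 in C1q-high members. Ctps, which makes CTP, had log2 ratios of -2.19 (-3.09 to -1.35) and -1.89 (-3.41 to -0.45). Atic, of purine synthesis, stood at 96.5 and 32.3 CPM in all members. Among the cell cycle genes that rose, Cdc25c, Ndc80, Hist1h2ae and Lbr were at 0.87, 0.90, 0.98 and 0.92 without their top barcode. Gins2, which fell, was at -0.95 without its own.

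The D cyclins differed in direction in all members. Ccnd1, cyclin D1, fell from 139 CPM (116 to 166) to 54.7 CPM (43.8 to 67.4), and had log2 ratios of -1.35 (-1.76 to -0.94) in all, -0.89 without NK-marked barcodes, short of the 2-fold limit, and -1.48 (-1.99 to -0.97) in C1q-high members. Ccne1, Ccne2 and Myc fell as well, with 14, 11 and 18 UMIs in the members of the anti-CD3L1 library, and without their top barcode Ccne1 and Myc were at -0.92 and -0.70. Ccnd2 and Ccnd3, the other D cyclins, rose from 13.5 to 89.5 and from 26.9 to 75.8 CPM. Ccnd2 had a ratio of 2.73 in all members, 1.60 without NK-marked barcodes and 0.23 (-0.74 to 1.30) in C1q-high members, and Ccnd3 had 1.49 in all and 0.32 in C1q-high members. Within C1q-high cells the fall of Ccnd1 exceeded counting error and the ratio of Ccnd2 did not.

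Of 13 genes of growth factor input, 8 rose in all members, among them Csf2rb, Csf2rb2, Kit, Igf1 and Il4ra. Csf2rb encodes the common beta chain of the GM-CSF, IL-3 and IL-5 receptors. Csf2rb went from 93.1 to 232 CPM, with log2 ratios of 1.32 in all and 1.38 (0.65 to 2.21) in C1q-high members. Csf2rb2, Kit and Il4ra were below the 2-fold limit in C1q-high members (0.65, 0.89 and 0.80, counts under 3 set to 3), and 30 of the 40 Kit UMIs of the anti-CD3L1 library lay in NK-marked barcodes. Csf1r itself, which the rule used, stood at 323 and 227 CPM, and at 332 and 276 CPM in C1q-high members. Irf8 rose from 61.7 to 432 CPM, yet 499 of its 695 UMIs lay in the 22 NK-marked barcodes, and the ratio was 1.47 without them and 0.96 in C1q-high members. Among effectors, Spp1 (osteopontin) rose from 38.2 to 645 CPM, Cd36 (a fatty acid and lipoprotein receptor) from 1 UMI to 124 in 32 members, and Apoe (apolipoprotein E) from 1679.8 to 4581 CPM. Droplets of 10 to 100 UMIs held 277 and 1072 CPM of Spp1, more than the members. They also held more CPM of Cd36 than the members in at least 1 library. The ratio of Apoe was 1.45 in all members and 0.79 in C1q-high members, below the 2-fold limit.

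Some of the large rises rested on NK-marked barcodes. The 10 described here were the largest among genes with no more CPM in droplets of 10 to 100 UMIs than in the members. This condition left out genes with rises larger than some of the 10, such as Plac8, Cd36, Spp1, Ccr2, Ly6c2, Cxcl9, H2-Aa and H2-Ab1. Rgs16, Cables1, Prkca, Txk, Atp10a and Bcl2 rose by 3.09 to 4.69 on the log2 scale in all members; without NK-marked barcodes Atp10a was at -0.09, Txk at 0.16, Bcl2 at 0.63, Cables1 at 1.05 and Prkca at 1.18, and Rgs16 had no UMI left in the anti-CD3L1 members. Mgl2 and Retnla, genes of macrophages and dendritic cells exposed to IL-4, and Plxdc2 and Dcstamp, did not rest on them, with log2 ratios of 5.66 for Mgl2, 3.51 for Plxdc2 and 3.44 for Dcstamp without NK-marked barcodes. Mgl2 gave 130 UMIs in 15 members and Retnla 117 in 8, against 2 and 0 UMIs in the control IgG library. A single barcode held 43 of the 130 and 58 of the 117, as well as 32 of 239 of Plxdc2 and 35 of 95 of Dcstamp. Without their top barcode Mgl2, Retnla, Plxdc2 and Dcstamp were at 4.02, 3.47, 2.95 and 2.49, with counts under 3 set to 3. Droplets of 10 to 100 UMIs differed in the same direction, with 1.14 and 25.3 CPM of Mgl2 and 0 and 20.6 CPM of Retnla, against 80.8 and 72.7 CPM in the anti-CD3L1 members. In C1q-high members of that library the 15 and 2 UMIs of Mgl2 and Retnla came to 17.9 and 2.38 CPM, below the droplets. The 10 largest falls under the same condition were Pcdh7, Slc9b2, Mnat1, Bdh2, Vegfc, Akap6, Marf1, Ppargc1b, Cxcl13 and Jdp2. Of these, 3 rested largely on 1 control IgG barcode each: it held 277 of 332 UMIs of Mnat1, 262 of 288 of Marf1 and 1114 of 1146 of Cxcl13, and without it the log2 ratios of Marf1 and Cxcl13 were 0.34 and 2.16, while Mnat1 stood at 63.4 and 31.7 CPM. Those of Mnat1, Marf1 and Akap6 in C1q-high members were -4.73, -4.74 and -4.51, with all 59 control IgG UMIs of Akap6 there in 1 barcode. In C1q-high members Bdh2 and Ppargc1b had log2 ratios of 0.15 and 0.73, each with 2 UMIs in control IgG members. Pcdh7 and Slc9b2 had 0 UMIs in the C1q-high members of the control IgG library and 14 and 5 in those of the anti-CD3L1 library. Neither gene was thus lower there in the anti-CD3L1 library. Slc9b2, a sodium and proton antiporter of osteoclasts, stood at 103 and 6.83 CPM. Jdp2, a transcription factor that takes part in osteoclast differentiation, stood at 691 and 94.4 CPM and had a log2 ratio of -1.35 (-1.85 to -0.86) in C1q-high members.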

How the data were processed

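CD45-sorted cells of 2 libraries, 1 per treatment, were profiled by droplet sequencing. The authors aligned reads and counted UMIs with Cell Ranger 7.1.0; the submitters' processing notes name the GRCm39 build and Seurat 5.1.0. The deposited matrices hold raw UMI counts per gene and barcode. A deposited table of p-values, log2 fold changes and shares of cells is the authors' own comparison of macrophages and was not used. Counts were summed over members and given as CPM. Exact Poisson and binomial intervals and Newcombe intervals of differences (95%) cover counting error only, and a count under 3 was held at 3 for calls. Calls needed 20 UMIs and a 2-fold ratio. Scores came from Scrublet in scanpy 1.11.5, and thinning drew UMIs without replacement (seed 1; numpy 2.4.6, scipy 1.17.1, Python 3.11.15). Doublets were not removed from the main values. Poisson counts were simulated from pooled shares with 200 changed genes, among genes with at least 50 expected UMIs. There 100% of 4-fold changes were called in the comparison of members with other cells (2796 genes) and between libraries (2939 genes). The simulation held no concentration of a gene in single barcodes and no genes nearer the limit of 20 UMIs. It therefore does not measure how reliable the calls in the real counts are. Total depth was 74850604 UMIs (control IgG) and 108246719 UMIs (anti-CD3L1). Genes named beyond the lists were the 10 highest and 10 lowest ratios with at least 50 CPM. Those of the comparison with other cells were ranked by the smaller of the 2 libraries' ratios, outside the lists. For the comparison between libraries, genes with more CPM in droplets of 10 to 100 UMIs than in the members were left out. Predicted, mitochondrial, ribosomal protein and haemoglobin genes were left out of both. H2az1, H2ax and H1f5 were matched by their older names H2afz, H2afx and Hist1h1b, and Mx1 had no match. The limit of 4 NK markers and the counts of C1q-low members by Nrp2, Nfatc1, Ctsk and H2-Ab1 were added after the values were seen. The members, lists and tests were chosen with earlier results of these data known. Some genes of the lists are not reported here.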

Additional observations from a re-analysis of the deposited data

Results flagged for a closer look

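Transcripts of the proliferation genes also appeared in barcodes that no comparison used. Among barcodes low in S100a8 and S100a9 with no Csf1r UMI, 22 of 676 (3.25%, 2.05 to 4.89) in the control IgG library and 165 of 3479 (4.74%, 4.06 to 5.50) in the anti-CD3L1 library had at least 3 of the 5 proliferation genes. Of these, 18 and 100 carried at least 4 NK markers. The upper limit of 6000 genes removed 19 and 15 Csf1r-positive barcodes, of which 12 (control IgG) and 10 (anti-CD3L1) had at least 3 of the 5 genes. Whether these barcodes were dividing myeloid cells was not tested.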

How the results depend on the processing

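No paired analysis was possible because each treatment was 1 library, and no replicate could be left out. Of 150 alternative values of the shares, their differences and the counts of called genes, 121 stayed within counting error or within 1.5 times the reported value and 29 did not. With at least 2 of the 5 genes, members made up 4.82% (control IgG) and 3.35% (anti-CD3L1) of Csf1r-positive barcodes, a difference of -1.47 points, and 1.19% and 2.17% of all barcodes, a difference of 0.973 points. With at least 4 of the 5 the anti-CD3L1 shares were 0.825% and 0.532%. Leaving Mki67, Top2a or Birc5 out of the rule gave 0.852%, 0.907% and 0.880% there, and leaving out NK-marked barcodes 0.909%. Thinning gave 0.344% and 0.516% at 3000 UMIs and 0.190% and 0.125% at 1500 UMIs. Both differences lay within counting error, so no order of the libraries was established. At 3000 UMIs the shares were 1.41% and 0.487% within C1q-high cells and 0.0606% and 0.507% within cells neither C1q-high nor Flt3-positive. At full depth without NK-marked barcodes, the latter class of the anti-CD3L1 library stood at 0.546%. With C1q at least 0.3% of UMIs, 40.2% of the anti-CD3L1 members were C1q-high and 54.0% were neither C1q-high nor Flt3-positive.

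Genes higher in the members numbered 541 after thinning to 3000 UMIs, against 868, and 294 of the 541 were among those reported. Between the libraries, 870 genes rose and 429 fell with at least 50 UMIs, and 1207 fell with at least 5 UMIs, against 1421 and 740. In C1q-high members 752 rose and 338 fell, of which 412 and 99 were among those reported. Without NK-marked barcodes 1142 rose and 773 fell, 953 and 577 of them shared. Scaling without neutrophil, haemoglobin, mitochondrial and ribosomal genes moved the median log2 ratio, over genes with UMIs in both libraries, from 0.05 to -0.05 and the share of calls that were rises from 65.8% to 57.6%. Cxcl13, held by 2 members of the anti-CD3L1 library, turned from higher to lower with at least 4 of the 5 genes (-3.67) and without the top 5% of Scrublet scores (-3.53). Atp10a turned to -0.0863 without NK-marked barcodes. In C1q-high members Bdh2 turned to 0.15, Ppargc1b to 0.73, Ctsk to 2.37 (from 1 control IgG UMI, or 0.79 with that count held at 3), Nfatc1 to 0.18 and Acp5 to 0.0172. Atp6v0d2, with no control IgG UMI there, turned to 1.68 with that count held at 3. Nrp2 turned to 0.736 in C1q-high members without the control IgG barcode that held most of it, and without the barcode that held most of each gene Cxcl13 turned to 2.16 and Marf1 to 0.338 in all members, alternatives chosen after the values were seen. The cause of these changes was not tested. Depth limits the per-cell values, since several of the genes named gave fewer than 10 UMIs per cell.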
